A study of Mus musculus with 6 samples.

Results

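B lineage genes were followed in RNA from the humerus of 6-day-old C57BL/6 mice, in 3 libraries from Control mice and 3 from Tfam cKO mice. The members are 36 genes that encode transcription factors, receptors, surface proteins and signalling proteins of developing B cells, from factors shared by many blood cells to proteins restricted to the B lineage. They were picked by gene symbol, and all 36 were found among the 23420 genes of the deposited table. In the Tfam cKO mice the gene for mitochondrial transcription factor A is deleted with Prx1-Cre, per the study's title. Prx1-Cre acts in the mesenchyme that forms the limb skeleton, and blood-forming cells do not arise from that mesenchyme. The labels do not give the exact alleles, the genotype behind the word Control, or whether each library came from its own animal. The p-values therefore measure the spread between these libraries, which may be technical. In both groups the marrow had been rinsed out with PBS ahead of RNA extraction, so the blood cells measured are those that stayed in the bone.

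B cells form in the marrow from progenitors that also give rise to other white blood cells. Ikzf1, Tcf3 and Foxo1 prepare progenitors for the lymphoid fates, Ebf1 then switches on B lineage genes, and Pax5 fixes the choice. Interleukin 7, a cytokine made by marrow stromal cells, acts through the receptor Il7r on pro-B and pre-B cells, while the pre-B cell receptor and later the B cell receptor signal through the kinases Syk, Blk and Btk and the adaptor Blnk.

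Each library held 1441152 to 1714770 reads assigned to genes, so genes with few reads are measured loosely. Tfam was at 40.6 ± 10.8 normalized counts in Tfam cKO and 70.7 ± 8.75 in Control (SD, n = 3 each), and its limma adjusted p was 0.0246. A normalized count is the number of reads of a gene divided by a size factor of its library, so that 1 unit is close to 1 read. Col1a1 and Col1a2, the type I collagen genes of bone, had the highest values of the bone markers, with means of 80953 and 80784 in Control and 37653 and 35637 in Tfam cKO. By limma their log2 fold changes were -1.09 and -1.18. With quantile normalization they were 0.022 and -0.022, and neither passed. That scaling sets each value by its rank within the library, so it cannot show a fall in genes that keep their rank. Of the 8 bone markers 3 were called lower and 2 higher (median 0.22), the latter being Ibsp and Alpl, at 1.30 and 0.78. The summed values of 7 skeletal muscle genes ranged from 1116 to 6915 in Control libraries and from 1206 to 9951 in Tfam cKO libraries, so the amount of muscle RNA differed between libraries of both groups. No batch is given in the labels.

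B lineage genes were lower in the Tfam cKO humerus. Of the 36 members, 35 passed the filter on low values, a mean over all libraries of 1 normalized count or more, and 28 of these 35 were called lower by limma at an adjusted p under 0.05. Among all 14438 genes tested, 6.01% were called lower. The number of members called higher was 0 by limma, which called 6.42% of all genes higher. It was also 0 at an unadjusted p under 0.05 and 0 by edgeR and by DESeq2, which called 934 and 604 of all genes tested higher. The median log2 fold change of the 35 members was -1.33, against 0.01 over all genes tested. In 30 of the 35, all 3 Tfam cKO libraries lay below all 3 Control libraries, a pattern found in 15.4% of all genes tested. A fall of more than 2 on the log2 scale was called in 10 members and in 0.499% of all genes tested. In bulk RNA, fewer cells of a type and less RNA per cell cannot be told apart. Leaving out 1 library gave between 22 members called lower (without Control replicate 1) and 31 (when Tfam cKO replicate 2 was left out), and 22 of the 28 kept the call under each of the 17 alternative settings run.

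**Figure D1:**
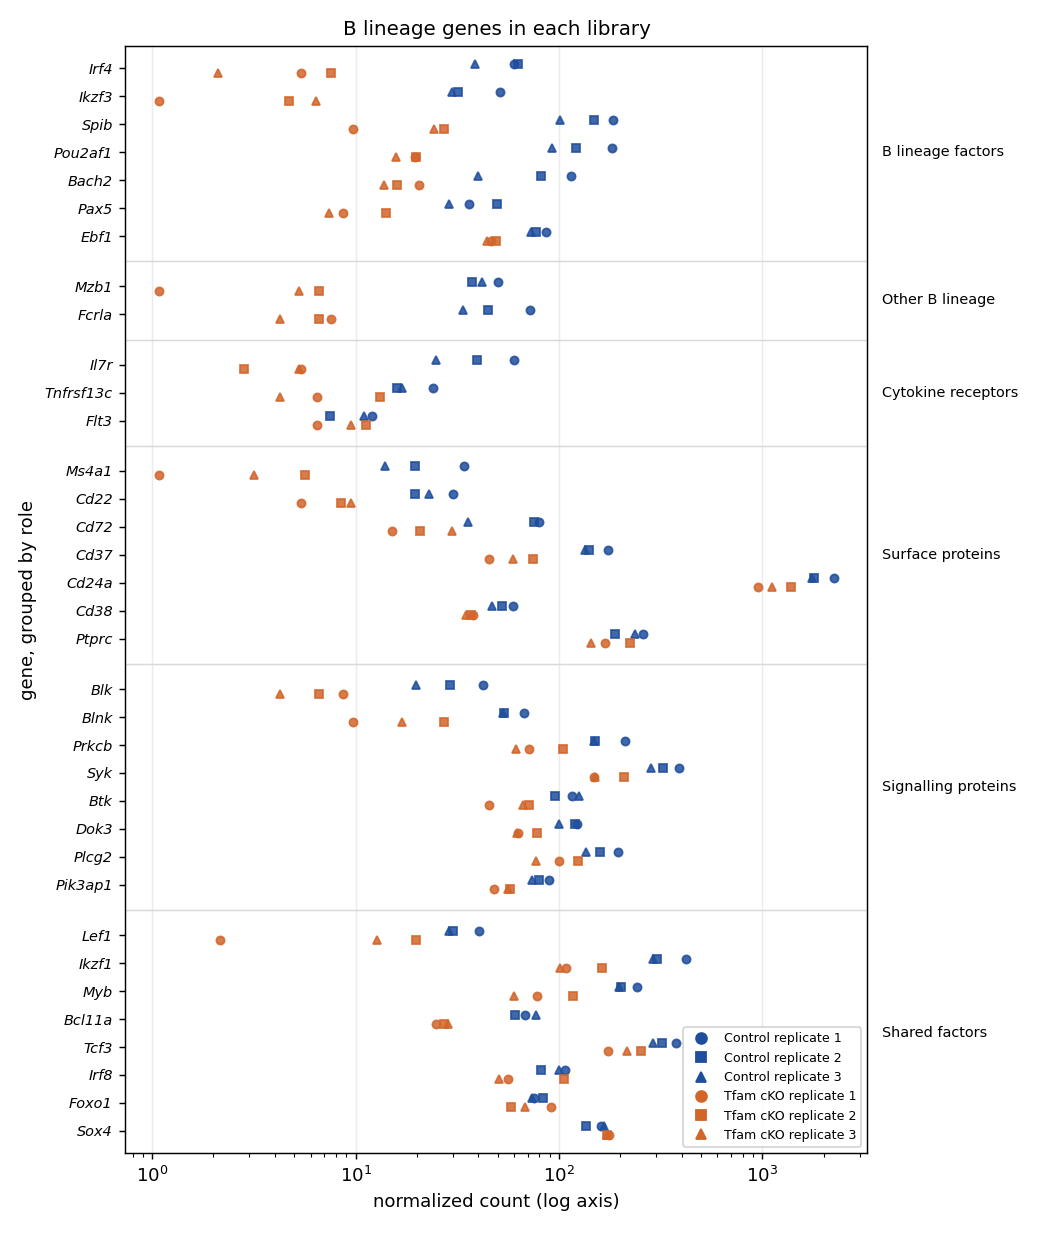
Normalized counts (log axis) of the 35 tested members in each of the 6 libraries, grouped by role and ordered within a role by fold change. Blue symbols are Control libraries and orange symbols Tfam cKO libraries, and the shape gives the replicate. The 7 B lineage factors, from Irf4 to Ebf1, show no overlap between the groups, while Flt3, Foxo1, Irf8 and Ptprc overlap.

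All 7 members grouped as B lineage transcription factors fell, and their median log2 fold change was -2.73. Some of them are also used by other cells. Their summed values were 714, 572 and 404 in the Control libraries and 111, 138 and 114 in the Tfam cKO libraries, which left 21.5% of the Control mean. Irf4, needed for light chain rearrangement in pre-B cells and later for plasma cells, fell most. It had 60.3, 62.8 and 38.8 normalized counts in Control and 5.41, 7.53 and 2.12 in Tfam cKO, so the lowest Control library was well above the highest Tfam cKO library. The log2 fold change of Irf4 was -3.28 ± 0.38 (SE, limma adjusted p = 2.26e-04), from 166 reads in all Control libraries to 15 in all Tfam cKO libraries. Irf4 lies on chromosome 13, plus strand, at 30749258 to 30766927 (mm10).

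Ikzf3, which encodes Aiolos, a zinc finger factor of the Ikaros family that rises at the pre-B stage, had 51.2, 31.8 and 29.8 normalized counts in Control and 1.08, 4.71 and 6.35 in Tfam cKO. Its log2 fold change was -3.08 ± 0.45 (SE, adjusted p = 9.99e-04). Spib, an ETS family factor close to PU.1, had 184, 148 and 101 in Control and 9.74, 27.3 and 24.3 in Tfam cKO (-2.84 ± 0.32, adjusted p = 2.24e-04). Both genes kept a wide gap between the groups although Tfam cKO replicate 1 was the lowest library for each.

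Pou2af1, the coactivator that B cells use with octamer-binding factors, was the member with the smallest p-value. It had 182, 122 and 92.5 normalized counts in Control and 19.5, 19.8 and 15.9 in Tfam cKO, with a log2 fold change of -2.73 ± 0.23 (SE, adjusted p = 2.85e-05). The 3 Tfam cKO libraries were close together, while the Control libraries spread more widely and all lay far above them. Pou2af1 lies on chromosome 9, plus strand, at 51213690 to 51240079 (mm10).

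Bach2, a repressor that holds back plasma cell genes and acts at the pre-B checkpoint, had 115, 81.5 and 39.8 normalized counts in Control and 20.6, 16.004 and 13.8 in Tfam cKO (log2 fold change -2.06 ± 0.32 SE, adjusted p = 0.00161). Of its 8493 exon bases, 396 are shared with BC024582 on the opposite strand, and whether the counting used strand is not given. Pax5, the commitment factor, had 36.2, 49.6 and 28.8 in Control and 8.66, 14.1 and 7.41 in Tfam cKO (-1.84 ± 0.31, adjusted p = 0.00224), which left 26.3% of its Control mean.

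Ebf1 stood at the other end of the B lineage factors. It had 86.4, 76.8 and 72.6 normalized counts in Control and 46.5, 49.0 and 44.4 in Tfam cKO, and both groups were tight and apart. Its log2 fold change was -0.74 ± 0.15 (SE, adjusted p = 0.00712), with a 95% interval of -1.06 to -0.41 beside -2.50 to -1.17 for Pax5; the difference between these genes was not tested. Ebf1 is also expressed by mesenchymal stromal cells and by adipocyte progenitors. Per kilobase of exon, the mean level of Ebf1 in Tfam cKO was 20.8 normalized counts, against 8.33 for Pax5, 7.16 for Pou2af1 and 1.07 for Irf4. In Control the same levels per kilobase were 35.0 for Ebf1, 31.6 for Pax5, 51.5 for Pou2af1 and 11.5 for Irf4, so Pou2af1 was above Ebf1 there and below it in Tfam cKO. Ebf1 lies on chromosome 11, plus strand, at 44618134 to 45005172 (mm10).

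Mzb1 and Fcrla, the other proteins of the B lineage among the members, fell with these factors. Mzb1, a chaperone partner in the endoplasmic reticulum that helps to assemble antibodies, had 50.2, 37.5 and 41.8 normalized counts in Control and 1.08, 6.59 and 5.29 in Tfam cKO (log2 fold change -3.24 ± 0.44 SE, adjusted p = 6.42e-04). Fcrla, an intracellular Fc receptor-like protein of B cells, had 72.3, 45.0 and 33.8 in Control and 7.57, 6.59 and 4.23 in Tfam cKO (-2.81 ± 0.33, adjusted p = 2.65e-04). Neither gene overlapped between the groups.

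**Figure D2:**
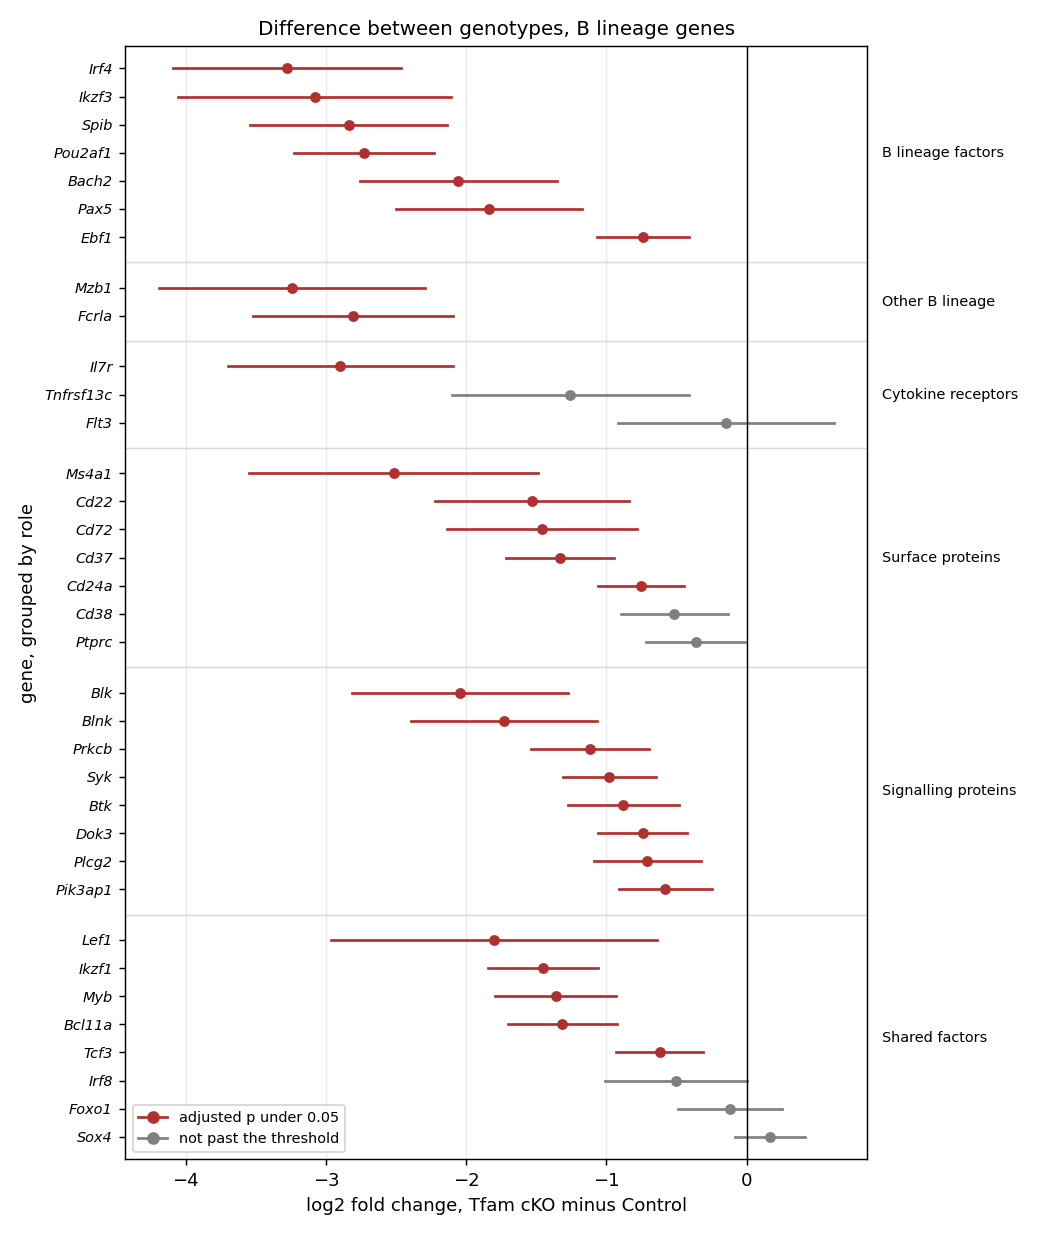
Log2 fold change (Tfam cKO minus Control, on log2 of normalized count plus 1) of the 35 tested members, grouped by role, with 95% intervals from the limma fit. Red marks the 28 genes past the adjusted threshold and grey the 7 that are not. Values run from -3.28 for Irf4 to 0.16 for Sox4.

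Of the 3 cytokine receptors, 1 passed the test. Il7r, the receptor for interleukin 7, had 60.3, 39.3 and 24.9 normalized counts in Control and 5.41, 2.82 and 5.29 in Tfam cKO. This left 10.9% of the Control mean (log2 fold change -2.90 ± 0.37 SE, adjusted p = 4.57e-04), from 127 reads to 13. Tnfrsf13c, the BAFF receptor of maturing B cells, had 24.1, 15.9 and 16.9 in Control and 6.49, 13.2 and 4.23 in Tfam cKO. Its groups did not overlap, but the change did not pass (-1.26 ± 0.39, adjusted p = 0.0536). It passed without Tfam cKO replicate 2 (0.0158), with a pseudocount of 5 (0.0462) and in a robust fit (0.0287), and the authors' deposited table gives a q-value of 0.0452. Flt3, a receptor of early multipotent and lymphoid progenitors and of dendritic cells, had 12.1, 7.49 and 10.9 in Control and 6.49, 11.3 and 9.52 in Tfam cKO, and the groups overlapped. Its log2 fold change was -0.15, with a 95% interval from -0.92 to 0.62, which takes in changes in either direction, and it rests on 31 reads in Control and 27 in Tfam cKO.

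Among 8 surface proteins, 5 fell, 2 did not pass and 1 was not tested, and the median of the 7 tested was -1.33. Ms4a1, which encodes CD20, had 34.2, 19.7 and 13.9 normalized counts in Control and 1.08, 5.65 and 3.17 in Tfam cKO (log2 fold change -2.52 ± 0.48 SE, adjusted p = 0.00469). Cd22, an inhibitory lectin of the B cell surface, had 30.1, 19.7 and 22.9 in Control and 5.41, 8.47 and 9.52 in Tfam cKO (-1.53 ± 0.32, adjusted p = 0.00779). Cd72, another inhibitory coreceptor, had 79.4, 74.9 and 35.8 in Control and 15.1, 20.7 and 29.6 in Tfam cKO (-1.46 ± 0.31, adjusted p = 0.00894). Control replicate 3 came close to the Tfam cKO libraries for Cd72, and 313 of its 1503 exon bases are shared with Tesk1 on the opposite strand. Without Control replicate 1 the adjusted p rose to 0.0572 for Cd22 and to 0.0633 for Cd72.

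Cd37, a tetraspanin found on B cells and at lower levels on other leukocytes, had 175, 141 and 134 normalized counts in Control and 45.4, 74.4 and 59.3 in Tfam cKO (log2 fold change -1.33 ± 0.18 SE, adjusted p = 6.42e-04). Cd24a, a small anchored glycoprotein of early B cells that red cell precursors and neutrophils also carry, was the most abundant member. It had 2239, 1789 and 1757 in Control and 950.04, 1388 and 1112 in Tfam cKO (-0.75 ± 0.14, adjusted p = 0.00468), so 59.6% of the Control mean was left. Cd38, an enzyme of the cell surface, had 59.3, 52.5 and 46.8 in Control and 37.9, 36.7 and 34.9 in Tfam cKO (-0.52 ± 0.18, adjusted p = 0.0746), and its groups did not overlap. Cr2, the complement receptor of mature B cells and follicular dendritic cells, had 0 reads in Control and 1 in Tfam cKO, and was not tested.

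Ptprc, which encodes CD45 and is carried by nearly all white blood cells, had 259, 188 and 237 normalized counts in Control and 169, 223 and 144 in Tfam cKO, and the groups overlapped. Its log2 fold change was -0.36 ± 0.16 (SE), with an adjusted p of 0.174 and an interval of -0.71 to -0.01. It passed without Tfam cKO replicate 2, the highest of its group (-0.53, adjusted p = 0.0427).

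All 8 kinases, adaptors and other signalling proteins fell. Their median log2 fold change was -0.93, and their summed values left 52.3% of the Control mean. Blk, a Src family kinase of B cells, had 42.2, 29.0 and 19.9 normalized counts in Control and 8.66, 6.59 and 4.23 in Tfam cKO (-2.05 ± 0.36 SE, limma adjusted p = 0.00281). Blnk, the adaptor that links Syk to Btk and phospholipase C, had 67.3, 53.4 and 52.7 in Control and 9.74, 27.3 and 16.9 in Tfam cKO (-1.73 ± 0.31, adjusted p = 0.00308). These are the members of the group that are closest to being B restricted.

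Of the signalling proteins shared with other blood cells, whose difference from Blk and Blnk was not tested, Prkcb, a protein kinase C that B cells use to activate NF-kB, had 212, 151 and 149 normalized counts in Control and 71.4, 104 and 61.4 in Tfam cKO (log2 fold change -1.12 ± 0.19 SE, adjusted p = 0.00289). Syk, the kinase that starts signalling from the pre-B and B cell receptors and from Fc receptors in myeloid cells, had 391, 325 and 283 in Control and 148, 209 and 150.2 in Tfam cKO (-0.98 ± 0.15, adjusted p = 0.00154). Btk, mutated in X-linked agammaglobulinemia and used by B and myeloid cells, had 116, 95.5 and 125 in Control and 45.4, 71.5 and 66.7 in Tfam cKO (-0.88 ± 0.18, adjusted p = 0.00751). Dok3, an inhibitory adaptor of B cells and macrophages, fell by 0.74 on the log2 scale (adjusted p = 0.00608).

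Plcg2, the phospholipase C downstream of Btk, fell by 0.71 (adjusted p = 0.0200), and Pik3ap1, an adaptor for phosphoinositide 3-kinase, fell by 0.58 (adjusted p = 0.0259). These calls depended on single libraries. That of Plcg2 ended without Control replicate 1 (adjusted p = 0.110) or Tfam cKO replicate 3 (0.0831). The Pik3ap1 call ended when replicate 1 (0.123) or 2 (0.0622) of Control was left out, when replicate 1 (0.0915) or 3 (0.0574) of Tfam cKO was, and with DESeq2 (0.137) and with the replicate number as a block (0.0626).

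Of 8 transcription factors shared with other blood-forming or progenitor cells, 5 fell and 3 did not pass, and the median log2 fold change was -0.97. Ikzf1, which encodes Ikaros, the founding factor of the lymphoid programme, had 422, 304 and 289 normalized counts in Control and 108, 162 and 102 in Tfam cKO (-1.45 ± 0.18 SE, limma adjusted p = 3.97e-04). Myb, a factor of dividing progenitors of several blood lineages, had 242, 202 and 197 in Control and 77.9, 118 and 60.3 in Tfam cKO (-1.36 ± 0.20, adjusted p = 9.64e-04). Bcl11a, needed for early lymphoid cells and also active in dendritic and red cell precursors, had 68.3, 60.9 and 76.6 in Control and 24.9, 27.3 and 28.6 in Tfam cKO (-1.31 ± 0.18, adjusted p = 6.45e-04). For these 3 genes the groups lay clearly apart.

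Tcf3, which encodes the E2A proteins, had 376, 319 and 290.5 normalized counts in Control and 173, 254 and 217 in Tfam cKO (log2 fold change -0.62 ± 0.14 SE, adjusted p = 0.0140). Its call ended without Control replicate 1 (0.0835) or Tfam cKO replicate 1 (0.0511). Lef1, a partner of beta-catenin in pro-B cells and also in osteoblast precursors, had 40.2, 30.0 and 28.8 in Control and 2.16, 19.8 and 12.7 in Tfam cKO (-1.80 ± 0.54, adjusted p = 0.0452). The Tfam cKO libraries of Lef1 spread over a wide range, and its log2 fold change was -0.996 without Tfam cKO replicate 1, the lowest. Leaving out any library except the second of Tfam cKO ended the Lef1 call, at adjusted p from 0.0536 to 0.170, as did a pseudocount of 0.1 (0.0667), a robust fit (0.179), quantile normalization (0.0574) and the replicate number as a block (0.0688).

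Irf8, Foxo1 and Sox4 did not pass. Irf8, a factor of B cells, monocytes and dendritic cells, had 107, 81.5 and 99.5 normalized counts in Control and 56.3, 105 and 50.8 in Tfam cKO, so that Tfam cKO replicate 2 lay within the Control range (log2 fold change -0.50 ± 0.23 SE, adjusted p = 0.186). It passed without that library (-0.83, adjusted p = 0.0100). Foxo1, active in B cells and in many other cells including osteoblasts, had 75.3, 83.4 and 73.6 in Control and 90.9, 58.4 and 67.7 in Tfam cKO, with an interval of -0.49 to 0.25. Sox4, active in lymphoid progenitors and in mesenchyme, had 161, 136 and 167 in Control and 175, 171 and 171 in Tfam cKO, with a log2 fold change of 0.16 and an interval of -0.09 to 0.42.

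The libraries of a group ranked alike across members. Control replicate 1 was the highest Control library in 24 of the 28 called members and Control replicate 3 the lowest in 24, whereas each Control library was the highest for 31.7% to 36.1% of all genes tested. In Tfam cKO, replicate 2 was the highest library in 20 of the 28, and in 32.3% of all genes tested. The share of all genes for the lowest library was not computed. The spread of one member is thus not independent of that of another.

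RefSeq promoter windows of 250 bases upstream of a start site were found for 30 of the members (38 windows, GRCm38.p6). Of those 30, 16 have a start site that is also the start of the gene in the deposited table. The windows were searched on both strands for TCCC and GGGA separated by 2 bases of any kind (EBF), CAGGTG (an E-box bound by E2A), ATGCAAAT (the octamer that Pou2af1 acts on), GAGGAAGT (bound by PU.1 and Spi-B) and GGAA and GAAA separated in the same way (bound by ETS and IRF factors together). These motifs do not overlap in the windows shown. EBF matches were found in 2 of the 38 member windows, those of Cd22 and Foxo1, and in 0.902% of the 13520 windows of tested genes. E-box matches were found in 10 member windows and in 15.7% of all windows, octamers in 2 and in 1.21%, PU.1 sites in 2 and in 2.51%, and ETS and IRF sites in 1 and in 1.98%. The windows of Bach2, Cd72, Cd37 and Prkcb are shown because each ends just before the start site of the deposited table, holds a match rarer than the E-box and belongs to a gene that fell. Foxo1 has such a window too, with an EBF match at -92. It is not shown because Foxo1 did not pass. Capitals mark the matches, and positions count back from -1, the base before the start site. Bach2 holds an ETS and IRF match starting at position -17, Cd72 a PU.1 match at -49, Cd37 an E-box at -175 and a PU.1 match at -25, and Prkcb an octamer at -70. A match describes the letters and does not show binding.
Bach2 chr4:32417185-32417434, plus strand: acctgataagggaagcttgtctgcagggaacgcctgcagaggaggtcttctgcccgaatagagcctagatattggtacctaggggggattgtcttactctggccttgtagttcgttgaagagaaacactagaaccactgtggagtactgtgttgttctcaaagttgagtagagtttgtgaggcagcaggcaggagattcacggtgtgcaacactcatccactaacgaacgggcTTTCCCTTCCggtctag
Cd72 chr4:43454627-43454876, minus strand: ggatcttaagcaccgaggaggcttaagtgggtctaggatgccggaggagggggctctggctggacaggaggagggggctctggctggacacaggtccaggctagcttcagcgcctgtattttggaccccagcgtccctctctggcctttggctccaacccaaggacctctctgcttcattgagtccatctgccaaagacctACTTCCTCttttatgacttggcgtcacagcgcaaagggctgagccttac
Cd37 chr7:45238840-45239089, minus strand: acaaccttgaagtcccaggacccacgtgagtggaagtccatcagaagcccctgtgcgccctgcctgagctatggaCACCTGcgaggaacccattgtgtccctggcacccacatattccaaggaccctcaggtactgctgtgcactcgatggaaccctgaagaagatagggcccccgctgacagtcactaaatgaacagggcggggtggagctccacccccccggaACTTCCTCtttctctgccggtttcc
Prkcb chr7:122288875-122289124, plus strand: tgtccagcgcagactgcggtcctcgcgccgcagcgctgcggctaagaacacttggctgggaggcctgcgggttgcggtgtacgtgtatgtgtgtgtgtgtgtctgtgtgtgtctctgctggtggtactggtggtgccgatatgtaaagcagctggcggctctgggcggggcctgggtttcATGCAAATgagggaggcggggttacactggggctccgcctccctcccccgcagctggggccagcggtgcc

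Relative to Ptprc, the marker of white blood cells as a whole, the B lineage genes were still low. Per 100 normalized counts of Ptprc in the same library, 21 of the other 34 tested members were lower in all Tfam cKO libraries than in all Control libraries, a pattern found in 4.05% of the genes tested. Pou2af1 was at 70.2, 64.7 and 39.1 per 100 of Ptprc in Control and at 11.5, 8.86 and 11.03 in Tfam cKO. Il7r was at 23.3, 20.9 and 10.5 in Control and at 3.21, 1.27 and 3.68 in Tfam cKO. Ikzf1 was at 163, 162 and 122 in Control and at 64.1, 72.6 and 70.6 in Tfam cKO. For these genes the gap between the groups remained after scaling to Ptprc.

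Ebf1, Tcf3, Cd24a, Btk, Dok3, Plcg2, Pik3ap1 and Cd72, all called lower as normalized counts, overlapped between the groups per 100 of Ptprc. Ebf1 was at 33.3, 40.8 and 30.7 in Control and at 27.6, 21.9 and 30.9 in Tfam cKO. Sox4 was higher in all Tfam cKO libraries, at 62.0, 72.1 and 70.6 in Control and 104, 76.8 and 119 in Tfam cKO, a pattern found in 18.3% of genes. Ptprc itself has 529 to 697 reads over the 3 libraries of a group, so these ratios carry its counting error too.

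**Figure D3:**
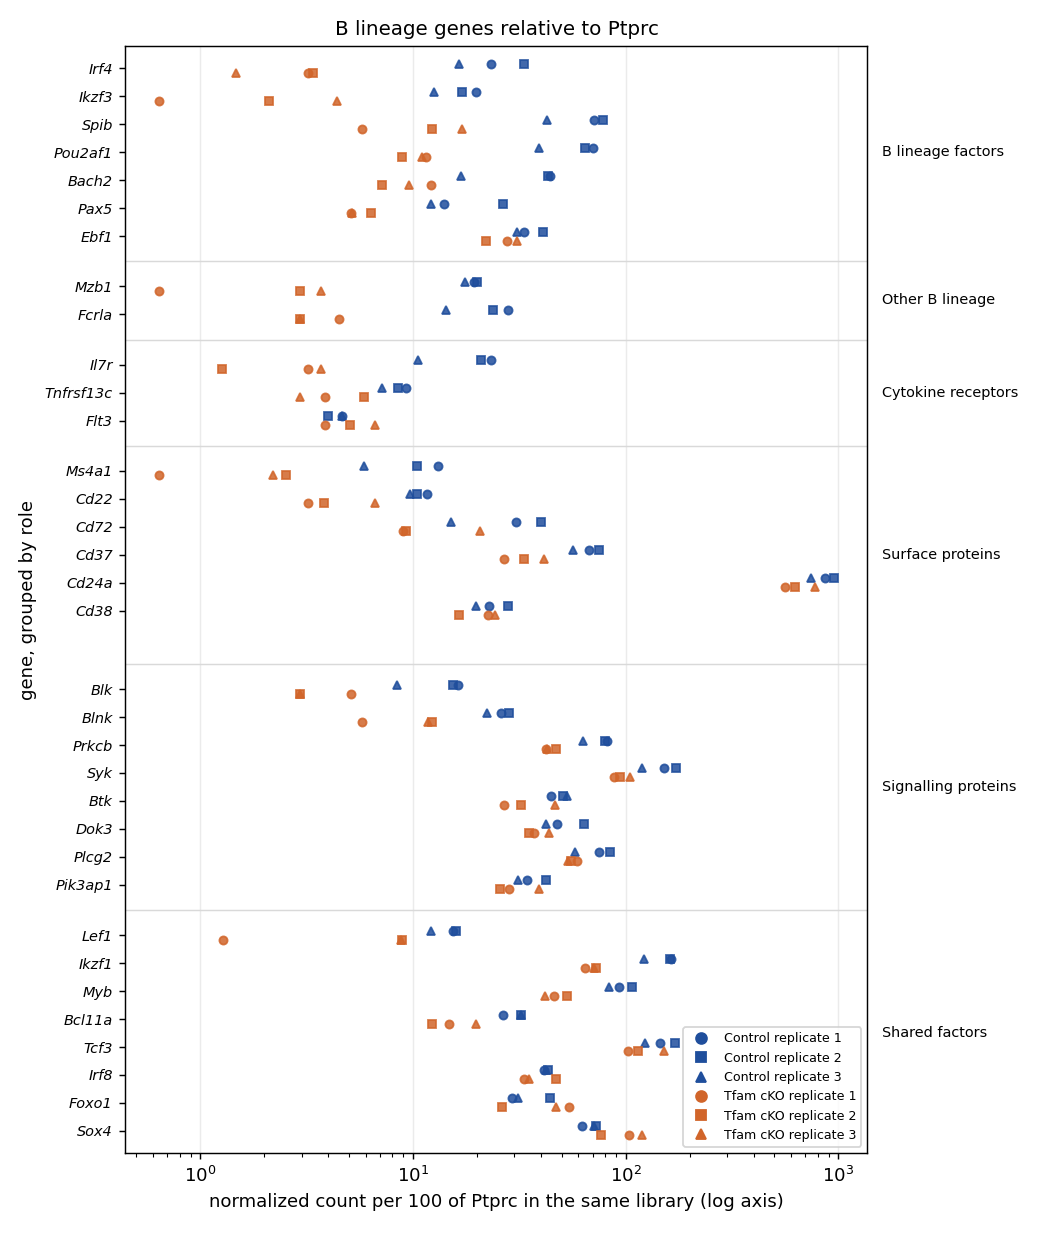
Normalized count of each of 34 members per 100 of Ptprc in the same library (log axis), grouped by role, with blue symbols for Control, orange for Tfam cKO and the shape for the replicate. Pou2af1, Il7r and Ikzf1 keep a gap between the groups, while Ebf1, Tcf3 and Cd38 overlap.

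A second ratio was taken to Cd79a and Cd79b, the signalling chains of the pre-B and B cell receptors, which were 316, 276 and 206 normalized counts summed in Control and 53.0, 82.8 and 31.7 in Tfam cKO. Since these genes fell strongly, 89.9% of all genes tested were higher per 100 of them in every Tfam cKO library, 9.89% overlapped and 0.201% were lower. Of the 35 members, 19 were higher, 14 overlapped and 2 were lower. Pax5 was among those that overlapped, at 11.4, 18.0 and 14.0 in Control and 16.3, 17.0 and 23.3 in Tfam cKO, as were Pou2af1, Blk, Bach2 and Il7r. The 2 that were lower were Irf4, at 19.0, 22.7 and 18.8 in Control and 10.2, 9.09 and 6.67 in Tfam cKO, and Fcrla, at 22.9, 16.3 and 16.4 against 14.3, 7.95 and 13.3. Ebf1 was higher, at 27.3, 27.8 and 35.3 in Control and 87.8, 59.1 and 140 in Tfam cKO. With 15 reads of Irf4 and 18 of Fcrla in all Tfam cKO libraries, both ratios are loose. The low sum of Cd79a and Cd79b in Tfam cKO replicate 3, 31.7, loosens every ratio of that library.

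Other genes of the same pathways were taken from lists chosen with earlier results of these data known. All 10 genes of the B cell receptor core and pre-B stage were called lower (median log2 fold change -2.69), and 8 were called without Control replicate 1. The log2 fold change was -4.19 for Rag1, which cuts the antigen receptor genes, -2.46 for Cd79a and -2.13 for Cd79b. In the wider B cell receptor signalling list, limma called 5 of 26 lower and 0 higher, with a median of -0.25. At an unadjusted p under 0.05, 10 were lower and 2 higher, edgeR called 5 and 1, and DESeq2 4 and 0. Inpp5d, a lipid phosphatase of blood cells, had 217, 194 and 166 in Control and 102, 139 and 115 in Tfam cKO (-0.69, adjusted p = 0.00746). The call of Pik3cg, a phosphoinositide 3-kinase of white blood cells (-0.80, adjusted p = 0.0115), ended without Control replicate 1 (0.0720), where only 1 gene of the list was still called lower.

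Of 23 other transcription factors of lymphoid and blood cells that were tested, 4 were lower and 1 higher, with a median of -0.11, and without Control replicate 1 the counts were 0 and 0. Lyl1, a factor of blood progenitors, was the 1 with the smallest p (-0.63, adjusted p = 0.0123). Of 13 other receptors and transducers of lymphoid cytokine signals, limma, edgeR and DESeq2 each called 1 lower and 0 higher, with a median of -0.04, and at an unadjusted p under 0.05 there were 4 lower and 1 higher. The gene that fell was Cxcr4, the receptor of the chemokine Cxcl12, at 181, 142 and 138 in Control and 74.7, 92.3 and 81.5 in Tfam cKO (-0.88, adjusted p = 0.00187). Jak3, a kinase that takes part in transmitting the Il7r signal, was at 78.4 ± 4.58 in Control and 57.5 ± 4.17 in Tfam cKO (SD, n = 3 each) and did not pass (adjusted p = 0.0648).

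Ligands of receptors on lymphoid and blood cells were also read, and some of these receptors are not members. Of 8 tested, limma called 2 lower and 0 higher, as did edgeR and DESeq2, and the median was -0.73. At an unadjusted p under 0.05, 5 were lower and 1 higher. Kitl, the ligand of the progenitor receptor Kit, had 137, 133 and 145 normalized counts in Control and 76.8, 78.1 and 68.8 in Tfam cKO (log2 fold change -0.88 ± 0.12 SE, adjusted p = 8.15e-04). Cxcl12 had 2052, 1902 and 2322 in Control and 577, 838 and 492 in Tfam cKO. In both the groups lay far apart. Kit and Cxcr4, the receptors of these 2 ligands, are not members.

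Il7, the ligand of Il7r, had 12.1, 6.56 and 7.96 normalized counts in Control and 3.25, 1.88 and 5.29 in Tfam cKO, or 27 and 10 reads. The groups did not overlap, but the change did not pass (-1.17 ± 0.44 SE, adjusted p = 0.104). Flt3l, the ligand of Flt3, had 11.05, 11.2 and 19.9 in Control and 21.6, 22.6 and 25.4 in Tfam cKO (0.73 ± 0.29, adjusted p = 0.125). Tnfsf13b, which encodes BAFF, had 10 reads in Control and 12 in Tfam cKO, and Tslp, a cytokine of the Il7r family of receptors, had 2 and 4, too few to compare.

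Markers of other blood cells, several of which share members with the B lineage, were read in the same libraries. T and NK cell markers had 0 of 9 tested genes lower and 0 higher by limma (1 and 1 at an unadjusted p under 0.05, and 0 by edgeR and DESeq2). Their sum over 14 genes was 75.3 to 84.3 in Control and 69.8 to 90.4 in Tfam cKO, and the T cell receptor genes Cd3e and Cd3g had 1 and 0 reads in Control and 1 and 2 in Tfam cKO. The sum joins genes that moved in opposite directions. Thy1, with the highest mean of the list, was at 20.4 in Control and 35.1 in Tfam cKO, and Nkg7 at 16.3 and 9.52. It is thus a weak measure of T and NK cells. Plasmacytoid and other dendritic cell markers, whose cells also use Irf8, Spib, Bcl11a and Flt3, had 0 of 7 tested genes lower and 0 higher (0 and 2 at an unadjusted p under 0.05, and 0 by edgeR and DESeq2). Their sum was 77.3 to 105 in Control and 69.8 to 137 in Tfam cKO, and Siglech, which defines the plasmacytoid cells, had 14 and 15 reads. Cox6a2 had the highest mean of this list in both groups. It was at 24.1, 61.8 and 30.8 in Control and 74.7, 31.1 and 13.8 in Tfam cKO. Within each group its libraries ranked as the summed skeletal muscle genes did. How much of the sum is muscle RNA was not tested. Of the plasma cell markers, Tnfrsf17 had 0 reads in all 6 libraries. Sdc1, which bone and skin cells also express, was called higher (0.60, adjusted p = 0.00841).

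Markers of monocytes and macrophages were partly higher, with 6 of 13 higher and 1 lower and a median of 0.56, and 4 to 6 were higher when 1 library was left out. C1qb, a complement component of macrophages, rose by 0.87 (adjusted p = 0.00319) and Cd14, a receptor for bacterial lipopolysaccharide, by 1.84 (adjusted p = 0.00357). Markers of red cell precursors, neutrophils and megakaryocytes moved with the members in part. Of the erythroid markers 4 of 6 were lower (median -0.73), of the neutrophil markers 5 of 12 (median -0.51) and of the megakaryocyte markers 2 of 6 (median -0.74). These counts ran from 1 to 5, from 1 to 9 and from 0 to 5 when 1 library was left out. The highest count of each list came without Tfam cKO replicate 2. The lowest came without Control replicate 1 for all 3 lists, and also without replicate 2 of Control or replicate 3 of Tfam cKO for neutrophils and megakaryocytes and without replicate 1 of Tfam cKO for megakaryocytes. The log2 fold change was -0.88 for Klf1, the master factor of red cells, and -1.01 for Cebpe, a factor of neutrophil maturation.

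In summed values the Tfam cKO libraries had 65.0% ± 19.0 of the Control mean for erythroid markers, 74.4% ± 15.9 for neutrophil markers and 60.3% ± 18.9 for megakaryocyte markers (SD, n = 3). The B cell receptor core and pre-B list had 15.2% ± 7.91 and the B lineage factors 21.5% ± 2.63. Cells of the red cell and neutrophil lineages also express Myb, Cd24a, Bcl11a, Syk and Ikzf1, and their part in the fall of those members was not tested.

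**Figure D4:**
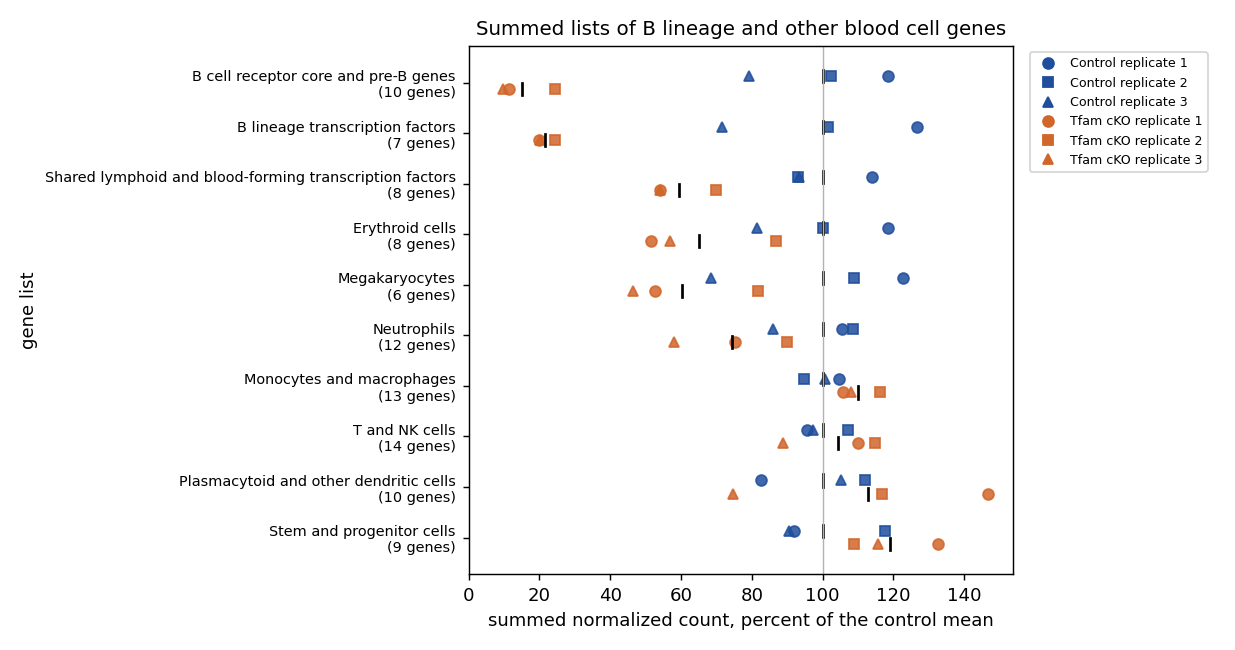
Summed normalized counts of 10 gene lists in each library, as a percent of the mean of the 3 Control libraries, with blue for Control, orange for Tfam cKO, the shape for the replicate and a black bar for the mean of each group. Of the 10 lists drawn, the Tfam cKO means are lowest for the B cell receptor core and pre-B list (15.2% of the Control mean) and the B lineage factors (21.5%). The Tfam cKO means of the monocyte and T cell lists are 110% and 104%. For the monocyte list every Tfam cKO library lies above every Control library. The T and NK sum joins a higher mean of Thy1 and a lower mean of Nkg7 in Tfam cKO. In the dendritic list Cox6a2 has the highest mean, and its libraries rank as those of the muscle genes.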

How the data were processed

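Directional libraries were made from polyadenylated RNA (NEBNext Ultra II kit), per the labels' protocols. TopHat, Cufflinks and mm10 are named in the submitters' processing notes. For the counter and its use of strand, nothing is given in the labels or headers. A signal per library for 23420 genes was deposited by the authors in 1 table. These values are read counts divided by a size factor: all are multiples of what 1 read is worth, within 0.001 reads, although in Control replicates 1 and 3 that worth is close to 1 and the test for steps is weaker. A q-value from the authors' deposited table is given only where named.

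The 6 libraries were compared by genotype alone with limma 3.58.1 (R 4.3.3, mean-variance trend) on log2(normalized count + 1), for 14438 genes. Fold changes on this scale understate those of low genes. The Benjamini-Hochberg adjustment covered all genes tested, at 0.05. edgeR 4.0.16 and DESeq2 1.42.0 were run on the recovered whole reads as alternatives, beside other pseudocounts, filters and scalings, a robust fit, a replicate block and each library left out. To check the code, limma, edgeR and DESeq2 were each run on simulated reads. These had the same extra spread for every gene and no deviation shared by the genes of a library. They therefore do not test the calls made here. Ratios to Ptprc and to Cd79a and Cd79b were not tested. Replicate libraries differed by more than sampling noise.

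The members and lists were chosen with earlier results of these data known. All members are named; of other genes, Tfam, Cd79a, Cd79b, 6 ligands and up to 4 of each list with the smallest p. One gene of the rule is not reported here. Cd3e, Cd3g, Siglech, Cox6a2, Tnfrsf17 and Col1a1 were chosen after their values were seen, to check cell types. Spi1 was not analysed here. Figures used matplotlib 3.10.9.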

Additional observations from a re-analysis of the deposited data

How the results depend on the processing

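The 28 members called lower were 26 to 29 under the planned settings that keep all 6 libraries, with 28 by edgeR, 27 by DESeq2 and 29 by the authors' deposited q-value, and 22 to 31 with 1 library left out. Members called higher were 0 in every setting. The calls lost in at least 1 setting were those of Tcf3, Lef1, Cd22, Cd72, Plcg2 and Pik3ap1, and no called member changed sign. Of the members not called, Foxo1 ran from -0.29 to 0.021 with 1 library left out, positive without Tfam cKO replicate 2, and Flt3 from -0.34 to 0.051, positive without Tfam cKO replicate 1. The cause was not tested. All genes called numbered 1795, against 1140 with DESeq2 and 891 to 1807 with 1 library left out. Same-numbered libraries did not deviate together (correlations of deviations -0.23, 0.01 and 0.09), and libraries with different numbers ran from -0.26 to 0.25. These few values cannot decide whether the numbers pair the libraries, so pairing is unknown. The replicate block gave 26 members lower and 1290 genes called. Depth limits precision for genes with few reads, such as Flt3, with 31 reads in Control and 27 in Tfam cKO, but Irf4, with 15 in Tfam cKO, was called in every setting.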
